A study of Mus musculus with 6 samples.

Results

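The values described are those of 8 genes used as marks of the stem cell state of undifferentiated spermatogonia (Aundiff), most of which respond to glial cell line-derived neurotrophic factor (GDNF): *Bcl6b*, *Lhx1*, *Lhx2*, *T*, *Eomes*, *Pou3f1*, *Pdx1* and *Nefm*. They were taken by name from the 53657 gene names counted in each of 6 mouse RNA-seq samples, and all 8 passed the filter on low counts that 19656 genes passed. RNA came from tdTomato+ cells with bright staining for MCAM, a surface protein that is high on Aundiff, sorted from adult testes 3 months after tamoxifen. Both groups of 3 mice carried *Gfra1-creERT2* and a floxed *tdTomato* reporter allele on a mixed C57BL/6J, 129/Sv and Swiss Black background, and both received 2 courses of tamoxifen of 4 days each. The MUT mice carried in addition the floxed *FR-Hras* G12V allele, which after Cre gives a heterozygous activating mutation at the *Hras* locus itself, and the WT mice were littermates without it. Cre was driven by the *Gfra1* gene, so the cells marked were those that made the GDNF receptor GFRA1 at the time of tamoxifen, together with what they had given rise to since. The comparison asks whether cells with activated HRAS hold these genes at another level than WT cells.

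GDNF is made by somatic cells of the testis and reaches Aundiff through the receptor GFRA1 and its signalling partner RET. These pass the signal on through Src family kinases, PI3K and AKT, and RAS. In cultured spermatogonial stem cells, adding or withdrawing GDNF changes the transcripts of a small set of transcription factors, and several of these are needed for the cells to keep renewing. *Bcl6b* encodes a zinc finger repressor of the BTB-POZ class, *Lhx1* and *Lhx2* encode LIM-homeodomain factors, *T* (Brachyury) and *Eomes* encode T-box factors, and *Pou3f1* encodes a POU factor. *Pdx1* encodes a ParaHox homeodomain factor best known from the pancreas, and *Nefm* encodes the medium neurofilament chain, an intermediate filament protein best known from axons. The study placed 7 of the 8, all but *Pou3f1*, in a list of stem cell markers that it displayed for these samples, so a shared direction among them is not independent evidence.

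Promoters from RefSeq (GRCm38.p6), 250 bases before to 50 after a transcription start, were at hand for 5 of the 8 members, with 6 promoters in all since *Lhx2* has a pair of starts. They are given as a description, and whether promoter sequence bears on the members' levels was not tested. Both strands were searched for GGAAGT (ETS factors), GCGGGGGCG and GCGTGGGCG (EGR factors), ATGCAAAT (octamer, bound by POU factors), TAATTA (homeodomain factors), AGGTGTGA (T-box factors) and CACCTG (E-box). A match to any of these was found in 3 of the 6 promoters, and the share of all promoters with any such match was not computed. Those 3 promoters are printed 5′ to 3′ on the gene's strand with the matched letters in capitals.
Lhx2, chr2:38339031-38339330, plus strand: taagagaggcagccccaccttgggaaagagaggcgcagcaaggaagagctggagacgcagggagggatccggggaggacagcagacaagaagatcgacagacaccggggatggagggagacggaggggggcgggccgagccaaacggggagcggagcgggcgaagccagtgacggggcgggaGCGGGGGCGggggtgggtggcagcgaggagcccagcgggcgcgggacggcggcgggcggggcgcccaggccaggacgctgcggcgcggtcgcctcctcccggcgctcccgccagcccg
T, chr17:8434173-8434472, plus strand: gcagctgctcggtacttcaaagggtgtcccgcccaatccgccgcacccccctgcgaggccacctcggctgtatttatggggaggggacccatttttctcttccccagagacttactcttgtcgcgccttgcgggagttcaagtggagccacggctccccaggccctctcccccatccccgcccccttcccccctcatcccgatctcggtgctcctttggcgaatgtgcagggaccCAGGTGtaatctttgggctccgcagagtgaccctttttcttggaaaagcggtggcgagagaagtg
Pdx1, chr5:147269847-147270146, plus strand: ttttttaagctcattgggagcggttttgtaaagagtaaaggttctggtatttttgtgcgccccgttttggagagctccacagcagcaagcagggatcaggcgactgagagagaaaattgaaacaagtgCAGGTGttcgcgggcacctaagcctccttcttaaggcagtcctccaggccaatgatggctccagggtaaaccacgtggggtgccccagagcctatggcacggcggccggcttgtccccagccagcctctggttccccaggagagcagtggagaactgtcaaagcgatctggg
The *Lhx2* promoter held GCGGGGGCG at position -68, counting the start site as 0, and this motif was present in 2.91% of all 32851 promoters. *T* held the E-box on the opposite strand at position -15 and *Pdx1* held it on the opposite strand at position -122, against 20.2% of all promoters. The promoters of *Lhx1* (chr11:84525485-84525784, minus strand) and *Eomes* (chr9:118477939-118478238, plus strand) and the second one of *Lhx2* (chr2:38351058-38351357, plus strand) held none of the 7 motifs. The other motifs were found in 23.8% (GGAAGT), 0.612% (GCGTGGGCG), 1.74% (octamer), 5.29% (TAATTA) and 1.28% (T-box) of all promoters and in none of the 6. The E-box was the only motif found in promoters of different members, and no matches overlapped. *Bcl6b*, *Pou3f1* and *Nefm* had no promoter at hand. G and C made up 47.3% of the *Eomes* promoter and 74.7% of the first *Lhx2* promoter, with a median of 52.7% over all promoters. The motif shares over all promoters were not matched for G and C content.

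Each sample had between 22729292 and 23550433 counted fragments, so 3 counts, the upper limit that a count of 0 allows, corresponded to 0.127 to 0.131 counts per 1000000 fragments of the tested genes (CPM). The tdTomato transcript stood at 61.9 ± 4.99 CPM in WT and 61.4 ± 7.64 CPM in MUT (mean ± SD, n = 3 each, as for all means here), and *Hras* itself at 60.7 ± 4.21 and 66.7 ± 4.97 CPM. The sorted cells carried the defining transcripts of Aundiff, with a summed level of 10 markers of 2076 to 2666 CPM in WT and 2290 to 2707 CPM in MUT. The 6 macrophage markers summed to 659 to 1119 CPM in WT and 582 to 725 CPM in MUT, and 6 spermatid markers to 869 to 1476 and 601 to 1147 CPM, with none of these genes at 0. Markers of B and plasma cells summed to 76.8 to 327 CPM in WT and 26.1 to 88.7 CPM in MUT. Over all 6 samples, the germ cell markers summed to 2132 to 2272 CPM and the meiotic markers to 396 to 553 CPM, while those of Sertoli, endothelial and peritubular myoid cells stayed between 7.91 and 47.1 CPM. Leydig cell markers summed to 12.9 to 21.1 CPM in 5 samples and to 67.3 CPM in MUT replicate 3. In RNA from many cells, fewer cells of a type and less RNA per cell cannot be told apart, and whether such cells bear on the members' values was not tested.

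The 8 members were transcribed at moderate levels in these cells. Per kilobase of annotated exon (FPKM, mean over all 6 samples), *Bcl6b* stood at 14.4, *Nefm* at 11.1, *Pou3f1* at 9.88, *T* at 7.91, *Lhx2* at 7.18, *Eomes* at 4.18, *Lhx1* at 3.92 and *Pdx1* at 3.25. Among neighbours in this order, only *Lhx2* and *Eomes* had ranges that did not meet, the lowest *Lhx2* value being 6.23 FPKM and the highest *Eomes* value 5.04 FPKM. The other 6 neighbouring pairs overlapped, with the upper gene above the lower in 4 or 5 of the 6 samples. The exon length matters for *Nefm*: 1108 of its 5782 annotated exon bases, 19.2%, also belong to *Nefl* on the opposite strand, and fragments that touched both genes were left out of the counts. With these bases taken out of the length, *Nefm* came to 13.7 FPKM. *Pou3f1* shared 8.57% and *Eomes* 2.84% of their exon bases with antisense transcripts that held 8 to 18 counts in a sample, and the other members shared none.

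*Bcl6b* held 61.0, 52.0 and 51.9 CPM in WT replicates 1, 2 and 3, and 64.3, 42.7 and 48.6 CPM in MUT replicates 1, 2 and 3. The highest and the lowest of the 6 values were both MUT samples, so the groups overlapped fully. Its mean was 55.0 ± 5.23 CPM in WT and 51.9 ± 11.2 CPM in MUT, a log2 fold change of -0.084 (SE 0.15, 95% interval -0.42 to 0.25). No member passed the edgeR quasi-likelihood test with Benjamini-Hochberg adjustment over all tested genes at an FDR of 0.1. The adjusted p was 0.998 for each of the 8, and 0.0102% of the tested genes passed. *Bcl6*, the paralogue of *Bcl6b* and better known from germinal centre B cells, lay lower per length at 4.73 FPKM and had a log2 fold change of 0.094 (interval -0.18 to 0.37).

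**Figure D1:**
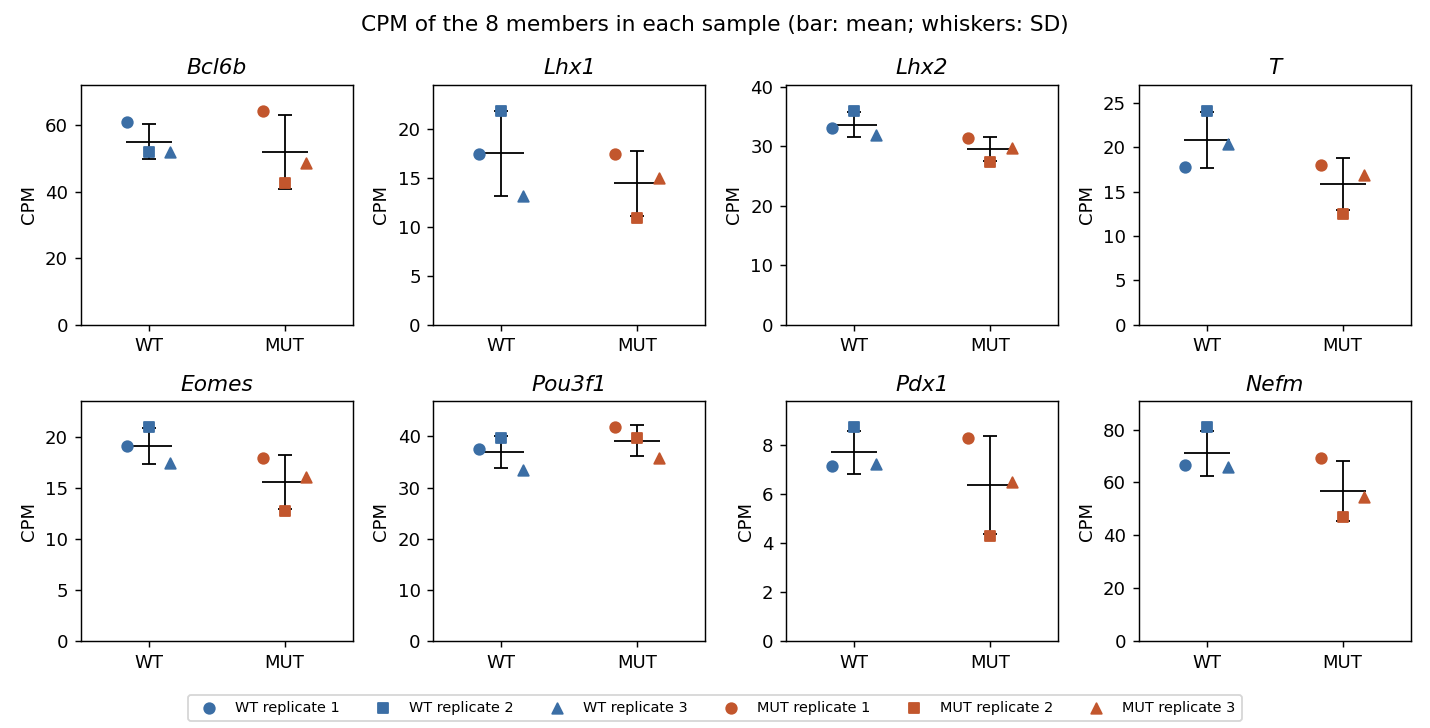
CPM (vertical axes, starting at 0) of the 8 members in the 3 WT (blue) and 3 MUT (orange) samples, with a marker shape for each replicate number, the mean as a bar and the SD as whiskers. The square of MUT replicate 2 is the lowest of the 6 values in 7 panels, and the groups are apart only for *Lhx2*.

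Of the LIM-homeodomain members, *Lhx1* held 17.4, 21.8 and 13.1 CPM in WT and 17.4, 10.8 and 15.0 CPM in MUT replicates 1 to 3. Replicates 1 of the groups were level, and the spread within either group was wider than the distance between the means of 17.5 ± 4.35 and 14.4 ± 3.33 CPM. The log2 fold change was -0.28 (SE 0.22, interval -0.78 to 0.23). *Lhx2* held 33.0, 36.0 and 31.9 CPM in WT and 31.4, 27.4 and 29.7 CPM in MUT. It was the only member whose groups did not overlap, with every MUT value below every WT value, which 3.00% of all tested genes also showed. The gap between the nearest samples, WT replicate 3 and MUT replicate 1, was small beside the SDs of 2.13 and 2.01 CPM around means of 33.6 and 29.5 CPM. The log2 fold change was -0.19 (SE 0.089, interval -0.39 to 0.015), the exact two-sided permutation test gave p = 0.1, the smallest that 20 assignments of 3 against 3 allow, and the edgeR p before adjustment was 0.0648. The count of members with groups apart changed with single samples: without MUT replicate 1 it was 6, all lower in MUT, against 6.75% of tested genes. It was 2, both lower, without WT replicate 1 (6.80% of tested genes lower) or WT replicate 3 (8.64%), and 1 lower and 1 higher without MUT replicate 3 (13.9% lower and 12.2% higher).

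*Lhx2* was the LIM-homeodomain gene with the highest mean level per length, and *Lhx8*, a factor best known from oocytes and forebrain neurons, came next at 6.67 FPKM. In MUT replicate 2 the order was reversed, with *Lhx8* at 8.60 and *Lhx2* at 6.23 FPKM. *Lhx1* was the third, and 8 of the other 9 family genes were at 1.18 FPKM or below, with *Lhx6* at 2.49 FPKM. None of the 12 family genes passed the test, and their median log2 fold change was 0.10. Besides *Lhx2*, groups did not overlap for *Lhx4* (0.830 ± 0.139 CPM in WT and 1.28 ± 0.232 CPM in MUT) and for *Isl2* (2.03 ± 0.331 and 2.79 ± 0.300 CPM), and both were higher in MUT, which 4.69% of tested genes were. *Ldb1*, the cofactor through which LIM-homeodomain proteins are joined into complexes, was the highest of the LIM cofactors at 96.2 FPKM, with a log2 fold change of -0.028 (interval -0.19 to 0.13). *Ssbp2*, which binds and stabilises LDB proteins, was lower in each MUT sample, at 57.3 ± 2.37 CPM in WT and 51.8 ± 1.05 CPM in MUT. The share of tested genes lower in this way was 3.00%. None of the 9 LIM cofactors tested passed.

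Of the T-box members, *T* held 17.8, 24.1 and 20.4 CPM in WT and 18.1, 12.5 and 16.9 CPM in MUT. MUT replicate 1 lay just above WT replicate 1, and the remaining MUT samples lay below all WT samples. The means were 20.8 ± 3.17 and 15.8 ± 2.92 CPM, and the log2 fold change of -0.39 (SE 0.17, interval -0.77 to -0.013), 0.76 times the WT level, was the largest among the members. *T* was also the only member with an edgeR p under 0.05 before adjustment (0.0439), which 1.44% of tested genes had on the lower side and 1.34% on the higher side, and its adjusted p was 0.998. *Eomes* held 19.1, 20.9 and 17.4 CPM in WT and 17.9, 12.8 and 16.1 CPM in MUT. Here too MUT replicate 1 lay within the WT range and the other MUT samples lay below it. The log2 fold change was -0.30 (SE 0.14, interval -0.63 to 0.035), with means of 19.1 ± 1.77 and 15.6 ± 2.62 CPM.

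Within the T-box family, *T* was the third per length and *Eomes* the fifth. *Mga*, which joins a T-box with a domain that pairs with MAX, was the highest at 37.7 FPKM, followed by *Tbx1*, known from pharyngeal development, at 12.8 FPKM and, after *T*, by *Tbx3* at 4.35 FPKM. None of the 15 T-box genes tested passed, their median log2 fold change was 0.051, and 7 had a negative value. Among the T-box genes next to the members in level, the values were 0.18 for *Tbx1* (interval -0.19 to 0.55), 0.18 for *Tbx3* (interval -0.14 to 0.50) and -0.19 for *Tbx6* (interval -0.60 to 0.23). The intervals of *Tbx1* and *T* overlapped, and the difference between genes was not tested.

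*Pou3f1* held 37.6, 39.7 and 33.5 CPM in WT and 41.8, 39.7 and 35.9 CPM in MUT. It was the only member with a positive log2 fold change, 0.084 (SE 0.095, interval -0.13 to 0.30), with means of 36.9 ± 3.12 and 39.1 ± 3.01 CPM. The groups overlapped, and MUT replicate 2, the lowest sample for every other member, was level with WT replicate 2, the WT sample with the most *Pou3f1*. *Pou3f1* was the POU gene with the highest mean level per length in these cells, above *Pou2f1* at 7.81 FPKM and *Pou5f1*, the pluripotency factor OCT4, at 7.24 FPKM. In MUT replicate 3, *Pou5f1* was above it, at 9.96 against 9.32 FPKM. None of the 10 POU genes tested passed, 5 of them had a negative value, and the groups of each of the 10 overlapped.

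*Pdx1* was the scarcest member, with 99 to 204 fragments in a sample. It held 7.12, 8.72 and 7.23 CPM in WT and 8.26, 4.29 and 6.50 CPM in MUT. MUT replicate 1 lay inside the WT range and the other MUT samples lay below it, with a coefficient of variation of 11.6% in WT and 31.3% in MUT. Counting error corresponded to 7.49% and 8.48%. The log2 fold change was -0.28 (SE 0.23, interval -0.81 to 0.26), the widest interval among the members. *Pdx1* was the only ParaHox gene above 1 FPKM: *Cdx1* stood at 0.472, *Cdx2* at 0.308, *Gsx2* at 0.121 and *Gsx1* at 0.069 FPKM, and *Cdx4* had 0 counts in every sample. Of the TALE-class genes, whose proteins pair with homeodomain factors such as PDX1, *Pbx2*, *Pbx4* and *Pknox1* were above *Pdx1*, *Pbx2* being the highest at 55.2 FPKM with a log2 fold change of 0.094 (interval -0.060 to 0.25). None of the 11 genes tested in this group passed.

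*Nefm*, the member with the most fragments, held 66.6, 80.9 and 65.7 CPM in WT and 69.1, 47.1 and 54.4 CPM in MUT. MUT replicate 1 lay inside the WT range, and the other MUT samples lay below it. The means were 71.0 ± 8.54 and 56.8 ± 11.2 CPM, and the log2 fold change was -0.32 (SE 0.14, interval -0.65 to 0.0043). Of its partner chains, *Nefh*, the heavy chain, had a log2 fold change of 0.14 (interval -0.029 to 0.31), *Ina*, alpha-internexin, of 0.15 (interval -0.10 to 0.39) and *Nefl*, the light chain, of -0.086 (interval -0.74 to 0.57). Each of these intervals overlapped that of *Nefm*, and the difference between genes was not tested. *Nefl* was at 0.594 FPKM, but 32.8% of its exon bases are those shared with *Nefm*, where fragments touching both genes were left out. Per length, *Nefh* (12.9 FPKM) and vimentin (*Vim*, 12.6 FPKM) stood beside *Nefm*. Once the shared bases were left out of its length, the mean of *Nefm* over all samples was above both. This order was not checked within groups, and *Vim* alone ran from 7.91 to 20.3 FPKM in WT. None of the 7 genes of this group passed.

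**Figure D2:**
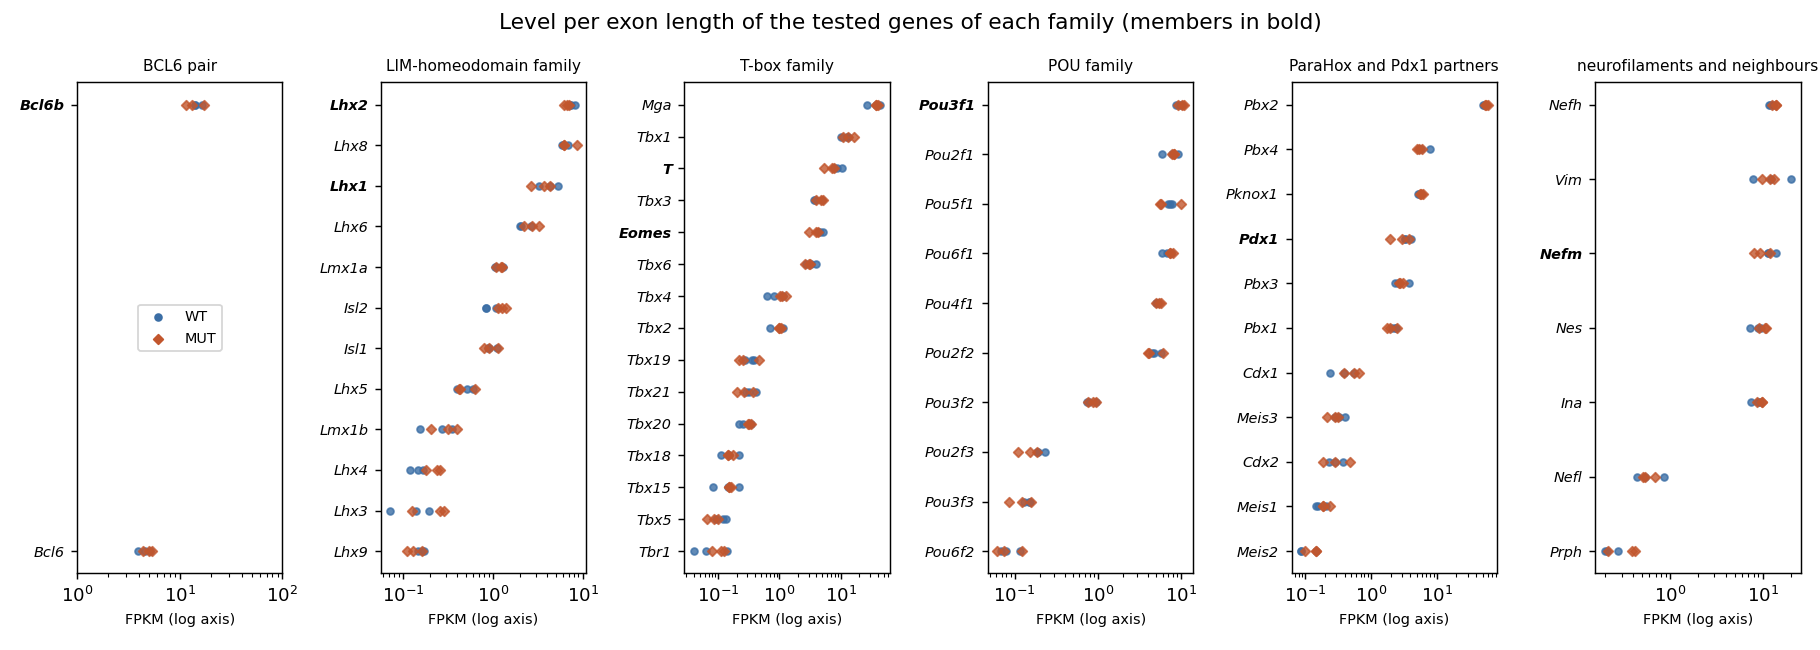
Level per kilobase of exon (FPKM, log axes) of the tested genes of 6 gene groups, with a point for each WT (blue circle) and MUT (orange diamond) sample and the 8 members in bold. *Lhx2* and *Pou3f1* are at the top of their families by the mean over samples, though not in every sample, and *Pdx1* is the only ParaHox gene above 1 FPKM.

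Over the 8 members, the log2 fold change was negative for 7 and positive for 1, against 48.2% negative among all tested genes. The median was -0.28, against 0.0066 over all tested genes. The 49 tested genes of the same families that are no members had a median of 0.086, and 19 of them were negative. The median moved with single samples. Without MUT replicate 2 the median was -0.14 and *Bcl6b* had a value of 0.025, without WT replicate 2 the median was -0.17, and without MUT replicate 1 it was -0.43. With the pair of samples numbered 2 left out together the median was -0.058, and *Lhx1* and *Pdx1* had values of 0.069 and 0.026. All 8 intervals lay between -1 and 1, so a doubling or a halving of a member lay outside its interval.

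**Figure D3:**
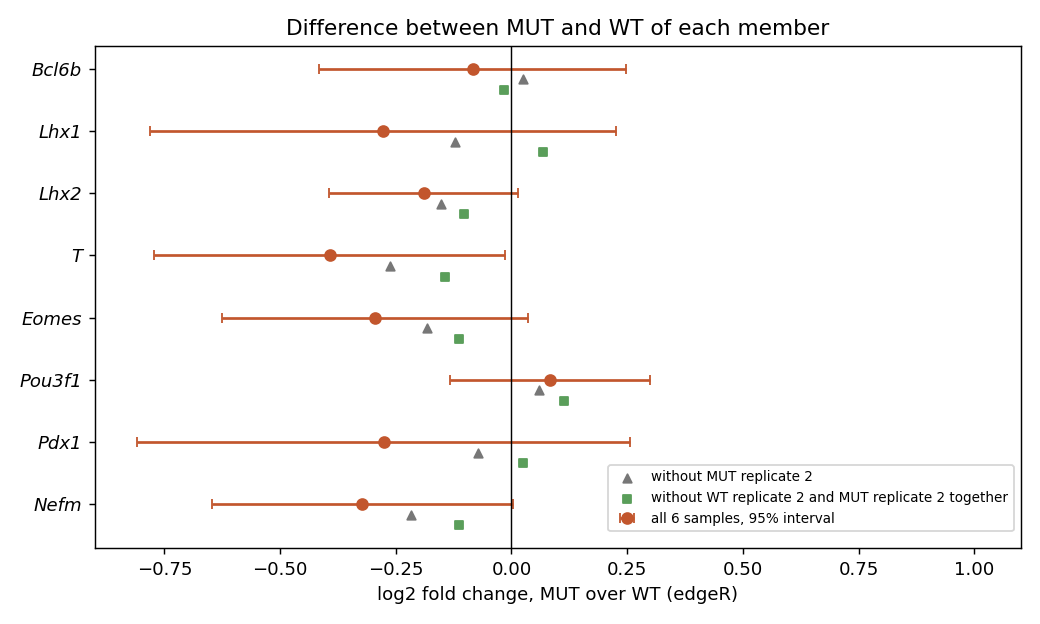
Log2 fold change of MUT over WT (horizontal axis) of each member from the edgeR fit on all 6 samples (orange, with 95% interval), without MUT replicate 2 (grey triangles) and without WT and MUT replicates 2 together (green squares). The interval of *T* alone leaves out 0, and without both replicates 2 the values run from -0.14 for *T* to 0.11 for *Pou3f1*.

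The members other than *Pou3f1* varied together from sample to sample. MUT replicate 2 was the lowest of the 6 samples for 7 members, and WT replicate 2 was the highest for 6, *Bcl6b* and *Pou3f1* being highest in MUT replicate 1. Within the MUT group, replicate 1 was the highest for all 8. The samples were also compared by replicate number, although the labels do not say what a number marks. For number 1, MUT minus WT in log2 CPM was between -0.089 (*Eomes*) and 0.21 (*Pdx1*), with 2 members lower in MUT. For number 2 it ran from -1.02 (*Pdx1*) to 0.0025 (*Pou3f1*), with 7 lower, and for number 3 from -0.27 (*Nefm*) to 0.19 (*Lhx1*), with 6 lower. The median over members was 0.036, -0.75 and -0.11 for numbers 1, 2 and 3, while over the 12376 tested genes with at least 5 CPM on average it was 0.022, 0.0090 and -0.0027. In the pair numbered 2, 90% of those genes lay between -0.42 and 0.27. When edgeR was given the replicate numbers as blocks, *T* had a log2 fold change of -0.40 and *Nefm* of -0.33, and no member passed, the smallest adjusted p being 0.643 for *Nefm*.

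Over the 6 samples, the 21 pairs formed by the 7 members without *Pou3f1* had Pearson correlations of log2 CPM from 0.457 to 0.971, with a median of 0.885. The 7 pairs with *Pou3f1* had values from -0.177 to 0.321, with a median of 0.033. After each group's mean was subtracted, the medians were 0.869 and 0.408. These are descriptions over samples that share a library and its depth and cell make-up across genes. The spread was wider than counting error for all 8 members in both groups, the largest counting error in any sample being 10.1%, for *Pdx1*.

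**Figure D4:**
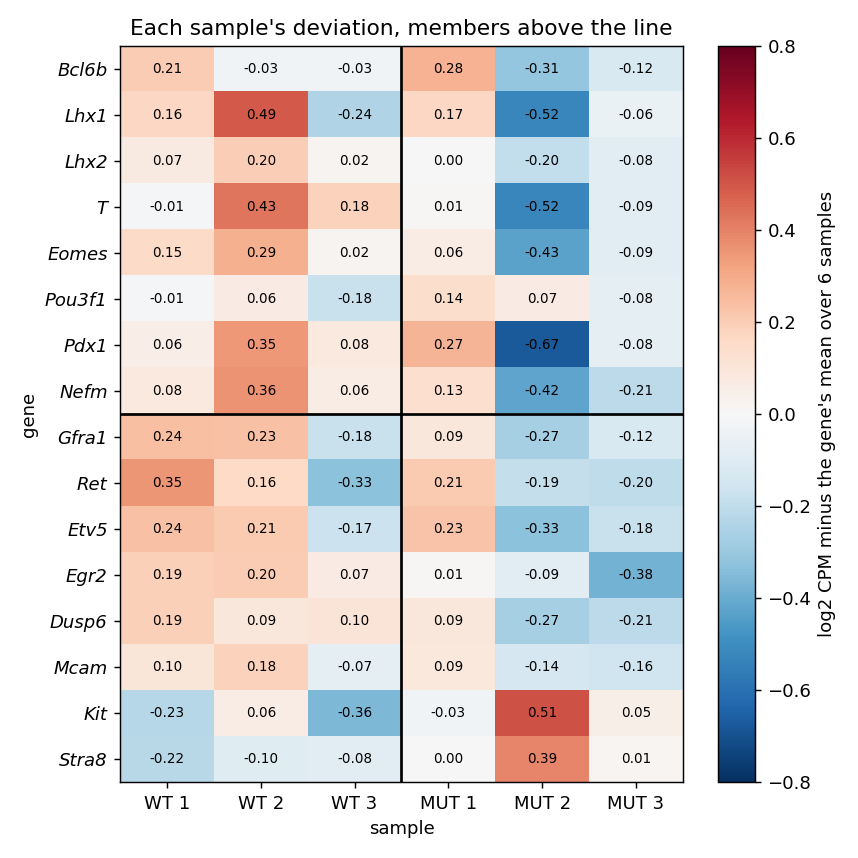
Log2 CPM of each gene in each sample minus that gene's mean over the 6 samples (colour and printed value), for the 8 members above the line and 8 other genes of spermatogonia, picked after their values were seen, below it. MUT replicate 2 is lowest for every member but *Pou3f1*, and highest for *Kit* and *Stra8*. Markers that are not drawn differed: *Sohlh1* and *Ccnd2*, of differentiating spermatogonia, were highest in MUT replicate 1. *Zbtb16*, *Sall4*, *Cdh1* and *Lin28a*, of Aundiff, followed the members less closely than *Gfra1* and *Ret*.

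Genes of the GDNF pathway were set beside the members. *Gfra1* held 147, 146 and 110 CPM in WT and 133, 104 and 115 CPM in MUT, and *Ret* held 443, 388 and 276 CPM in WT and 400, 303 and 301 CPM in MUT. Both receptors overlapped between groups, and for both WT replicate 3 was the lowest WT sample. None of the 10 tested ligands, receptors and co-receptors passed, and their median log2 fold change was -0.12. Groups did not overlap for *Gfra2*, the receptor for neurturin, at 6.86 ± 0.610 CPM in WT and 4.91 ± 1.24 CPM in MUT, and for *Gfra3*, the receptor for artemin, at 6.56 ± 0.383 and 8.15 ± 0.789 CPM. Of all tested genes, 3.00% had groups apart on the lower side and 4.69% on the higher side. Of the 20 genes that relay the signal, none passed, and the median was 0.046. Among those higher in every MUT sample were *Src*, a kinase downstream of RET (78.0 ± 5.42 CPM in WT and 95.3 ± 6.66 CPM in MUT, log2 fold change 0.29, interval 0.11 to 0.47), *Dok4*, an adaptor of RET, and the kinase *Akt1*. The share of all tested genes that were higher in this way was 4.69%.

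Among 15 other genes that respond to GDNF or to the ERK cascade, 12 had a negative log2 fold change and none passed, with a median of -0.18. *Egr2*, an immediate early zinc finger factor, was the only gene of this list with groups apart, at 111 ± 5.77 CPM in WT and 90.6 ± 12.2 CPM in MUT (log2 fold change -0.30, interval -0.53 to -0.067). Groups apart on the lower side were found for 3.00% of all tested genes. *Etv5*, the ETS factor that acts upstream of *Bcl6b*, *Lhx1* and *T* in cultured spermatogonial stem cells, held 161, 158 and 121 CPM in WT and 160, 109 and 120 CPM in MUT. Its samples followed the order of most members in MUT, with replicate 1 high and replicate 2 low, and in WT it was lowest in replicate 3. The list was assembled with results of these samples known, so its direction is not independent of that of the members.

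The genes whose levels across the 6 samples were most like the members' mean pattern were *Cog3* (r = 0.993), *St14* (0.985), *Mtus1* (0.982), *Mboat1* (0.979) and *Gfpt2* (0.978), and the least like were *Napepld* (-0.972), *Mfsd12* (-0.965) and a gene listed under a clone name (-0.961). These are the extremes of 12368 genes over 6 samples, given as a description, and 68 genes had r above 0.9 and 25 below -0.9. With ranks in place of log2 CPM, 4 of the 5 most like genes had the highest possible value of 1 and *Gfpt2* had 0.943, so over 6 samples ranks do not order them. *Etv5* (0.917), *Mcam* (0.909), *Etv4* (0.906) and *Gfra1* (0.888) were among the 78 genes most like the members. Other markers of Aundiff did not rank as high. *Id4* had 0.778 and *Ret* 0.697, with 0.346 for *Zbtb16*, 0.030 for *Sall4*, 0.0057 for *Cdh1* and -0.298 for *Lin28a*. The receptors, co-receptors and other GDNF-responsive genes also differed among themselves. *Gfra4* had 0.099, *Sdc3* 0.015, *Cxcr4* -0.155, *Egr3* -0.187, *Mycn* -0.36 and *Gfra3* -0.698. The rest of those ranked, apart from the top genes named above, ran from 0.365 (*Ccnd2*) to 0.877 (*Spry4*). Of the markers of differentiating spermatogonia, *Stra8*, which retinoic acid induces on entry into differentiation, had r = -0.799, the receptor *Kit* had -0.550 and *Dmrtb1* had -0.502, while *Dnmt3b* (-0.224), *Sohlh1* (-0.181) and *Ccnd2* (0.365) lay nearer to 0.

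The 6 markers of differentiating spermatogonia summed to 1018, 1051 and 945.7 CPM in WT and to 1140, 1222 and 1065 CPM in MUT. Every MUT sample lay above every WT sample, but WT replicate 2 and MUT replicate 3 lay close together, at 1051 and 1065 CPM. The sample with the highest sum was MUT replicate 2, in which 7 members were lowest. MUT replicate 2 was the highest sample for 4 of the 6, and MUT replicate 1 for *Sohlh1* and *Ccnd2*. *Ccnd2*, which is also counted among the other GDNF-responsive genes above, held 322 CPM in MUT replicate 2. That was below WT replicates 1 and 2 (359 and 331 CPM). All 6 genes had a positive log2 fold change, with a median of 0.17, and none passed. *Kit* held 136, 166 and 124 CPM in WT and 155, 226 and 164 CPM in MUT. *Stra8* held 159, 173 and 175 CPM in WT and 185, 242 and 187 CPM in MUT. It alone of the 6 had groups apart, higher in MUT, which 4.69% of tested genes also showed. The part of cell make-up in the members' values was not tested.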

How the data were processed

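RNA from tdTomato+ MCAM-bright cells of 3 WT and 3 MUT mice was made into TruSeq Stranded mRNA libraries and sequenced as paired ends. For each sample, the authors deposited a file of unnormalized fragment counts by gene name. Per the file headers they were made with featureCounts 1.6.2 without regard to strand, so a gene and an antisense partner cannot be told apart, and fragments that mapped to several places or to several genes were left out. The submitters' processing notes name FastQC, STAR and GRCm38.p6.

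Of the 53657 gene names, filterByExpr of edgeR 4.0.16 (R 4.3.3) kept 19656, and the kept counts were scaled by TMM. The quasi-likelihood test compared MUT with WT, with no other term in the model, and p-values were adjusted by Benjamini-Hochberg over all kept genes with 0.1 as threshold (the study used DESeq2 with this threshold). CPM values are TMM-normalized, FPKM values divide them by the exon length in the files, and intervals are at 95%. The fitting code was tested on simulated data. DESeq2 1.42.0, voom of limma 3.58.1, other filters, blocks and left-out samples were alternatives. Likeness was the Pearson correlation of log2 CPM (prior count 2) with the mean of the scaled members, among genes with at least 5 CPM on average. Intervals and floors cover counting error only where they rest on counts of 1 sample.

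The replicate numbers in the labels were not borne out as a clear pairing of the samples. Over 10583 genes above 10 CPM, deviations from the group means correlated at 0.304, 0.156 and 0.395 between samples of the same number. Between different numbers the correlations ran from -0.418 to 0.326. The highest of these, WT replicate 2 with MUT replicate 1, was above the same-number values of 0.304 and 0.156. The labels do not say what a number marks. No 2 samples of a group agreed within sampling noise.

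The members, gene lists, markers and motifs were chosen with earlier results of these data known. Genes named are the members, genes of each list that were called, had groups apart or had the highest level per length of a family, the 5 genes most and 3 least like the members, and marker genes of the sort. *Etv5*, *Etv4*, the receptors, *Sdc3*, *Cxcr4*, *Egr3*, *Mycn*, *Spry4*, *Tbx1*, *Tbx3*, *Tbx6*, *Lhx6*, *Lhx8*, *Pou2f1*, *Pou5f1*, *Nefl*, *Nefh*, *Ina*, *Vim*, *Bcl6* and the ParaHox genes were named after their values were seen. The result for 1 gene of a pathway list is left out.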

Additional observations from a re-analysis of the deposited data

How the results depend on the processing

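No member passed the test in any of the 16 alternatives, and the count of members with a p under 0.05 before adjustment ran from 0 to 5, the 5 without MUT replicate 1, where 407 of 20272 genes tested had such a p. Across all genes, 2 passed with genotype as the only term (547 at an unadjusted p under 0.05), 9 with DESeq2, 17 when its Cook's distance filter was off, 4 with voom, 5 without a filter, 0 with at least 10 counts in every sample (479 unadjusted) and 1 at an FDR of 0.05. Leaving out single samples gave from 0 (without MUT replicate 2, 292 unadjusted) to 6 (without MUT replicate 3). Leaving out both samples numbered 2 gave 0 (229 unadjusted, with 2 samples a group), a members' median of -0.058, and values of 0.069 for *Lhx1* and 0.026 for *Pdx1*. The causes were not tested.

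With the replicate numbers as a block, which treats WT and MUT samples of a number as a pair, 13 genes passed in edgeR. In DESeq2 55 passed, and none in either were members. None of the marker genes passed without the block. With it, the marker genes that passed in edgeR were *Tnp1* (spermatids) and *Jchain* (plasma cells). In DESeq2 these passed together with *Prm1*, *Tnp2* and *Ighm*, and all were lower in MUT. The members' median was -0.29 in both.

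Without single samples the median of the members ran from -0.43 (without MUT replicate 1) to -0.14 (without MUT replicate 2), the *Bcl6b* value from -0.27 to 0.025, and the count of members with groups apart from 1 to 6, while 5.06% (without MUT replicate 2) to 13.9% (without MUT replicate 3) of all tested genes were apart on the lower side. All other member values kept their direction in these fits. With ranks, 4 of the 5 genes most like the members were tied at the highest possible value, so that 1 of the 5 stayed among the first 5 after ties were broken, and with a prior count of 0.5 all 5 did. The 6 samples limit every comparison here: the intervals of the members span 0.41 to 1.07 on the log2 scale, and 3 against 3 samples cannot give an exact permutation p below 0.1.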
